A study of Homo sapiens with 6 samples.

Results

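Epithelial cells make their own cytokines, and the 10 genes described here stand for the main kinds: the interleukin-1 (IL-1) agonists IL1A and IL1B, their antagonist IL1RN, the related cytokine IL18, IL6, the chemokines CXCL1, CXCL2, CXCL8 and CCL20, and the interleukin-7 receptor chain IL7R. They were taken by symbol from an array of 19775 genes. All 10 were measured, by 20 of the 41091 probe sets that carry a single gene symbol, and none was left out, since no filter on low values was applied. The cells were MCF10A, a cell line from normal human breast epithelium that does not form tumours, grown in medium with horse serum, epidermal growth factor, hydrocortisone, cholera toxin and insulin. They were plated at 50K, 100K, 200K, 400K, 600K or 800K cells (50K is 50000 cells) in 35 mm dishes and harvested after 24 h, with 1 Affymetrix array per density. All arrays hold the same cell line in the same medium, and the number of cells plated is the only labelled difference. Every probe set is given relative to its signal on the 50K array, as a ratio, so changes are known but levels are not, and one gene cannot be ranked above another by abundance. For the same reason the epithelial identity of the cells could not be checked against marker levels.

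IL-1 alpha and IL-1 beta signal through the IL-1 receptor to the NF-kB factors, and the product of IL1RN occupies the same receptor without signalling, so that the balance of agonist and antagonist sets the response. IL-1 beta and IL-18 are made as precursors that caspase-1, activated in inflammasomes, cleaves to the active forms, whereas IL-1 alpha acts as an alarm signal when cells are damaged. CXCL1, CXCL2 and CXCL8 attract neutrophils, and CCL20 attracts lymphocytes and dendritic cells that carry the receptor CCR6. IL7R encodes the alpha chain that IL-7 and thymic stromal lymphopoietin (TSLP) receptors share and is best known from lymphocytes.

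The trend of each gene was the slope of its log2 ratio against log2 of the number plated, fitted with limma over all genes, so a slope of 1 means a doubling of the signal for each doubling of the cells. Values after ± are standard errors of that fit over 6 arrays. For differences between genes they come instead from an ordinary straight-line fit to the 6 arrays, without limma. With a threshold of 0.05 on the Benjamini-Hochberg adjusted p, 3 of the 10 genes fell (IL1A, IL1B, IL7R), 4 rose (IL1RN, IL18, CXCL1, CXCL8) and 3 did not pass (IL6, CXCL2, CCL20). Among all genes 21.3% passed the same test, 12.4% falling and 8.93% rising. At 800K, 2 of the 10 lay at least 2-fold below 50K (IL1A, IL7R) and 1 at least 2-fold above it (IL1RN), against 2.69% and 2.25% of all genes, together 4.94%. On any array 4 of the 10, these and IL1B, differed at least 2-fold, against 5.59%. Of the 20 probe sets, 4 rose and 3 fell, against 7.14% and 10.1% of all probe sets, together 17.2%. The median slope was 0.012 over the 10 genes and 0.0045 over all genes. The 10 genes were chosen with earlier results of these data known, and all genes include any that are not expressed. The shares are therefore description and no test of the 10 genes as a set. Each density has 1 array, so p-values come from the scatter of 6 arrays around a line and hold no measure of the variation between dishes. In RNA of a whole dish, fewer cells expressing a gene and less RNA per cell cannot be told apart.

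**Figure D1:**
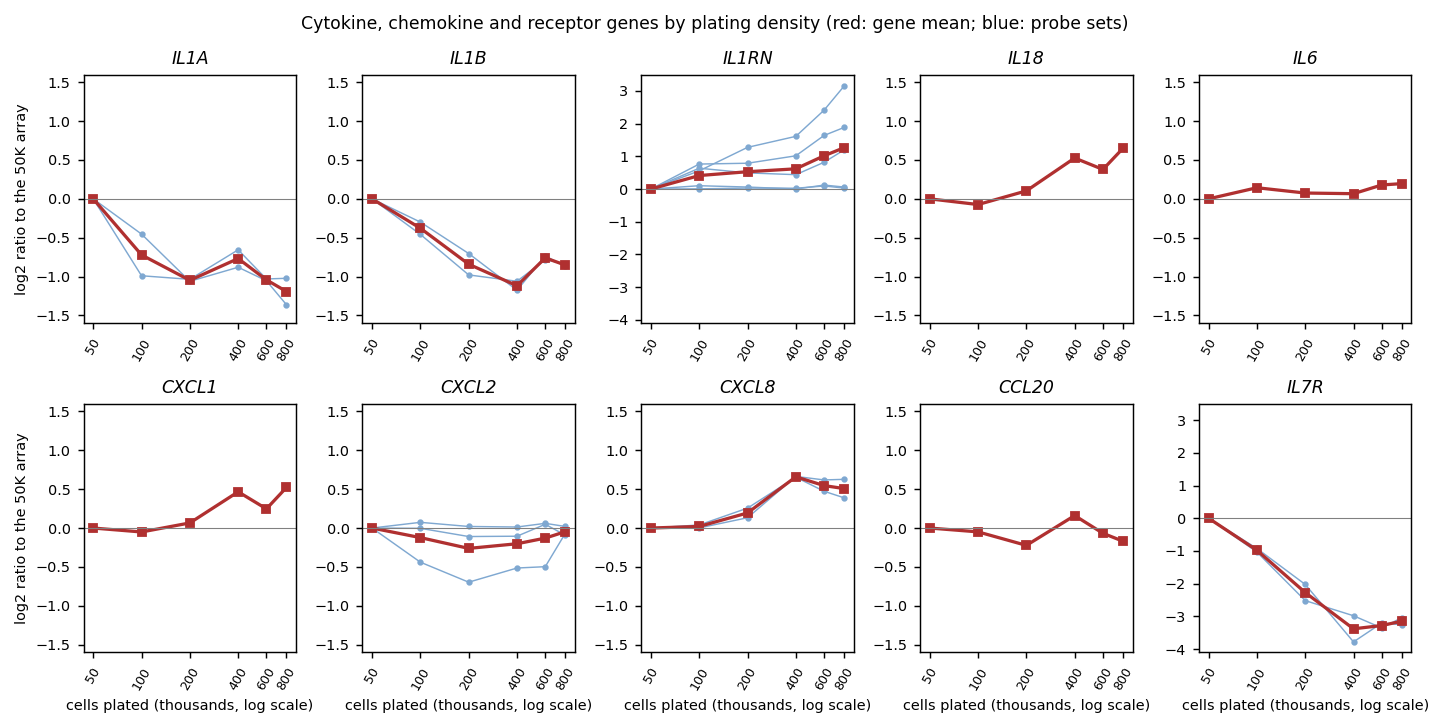
Log2 ratio to the 50K array (y) against the cells plated (x, log scale, in K) for the 10 genes, 1 array per density. Red squares are gene means and blue points are single probe sets. The axes of IL1RN and IL7R span a wider range than the others. IL7R drops to 0.096 of its 50K value at 400K and stays there, IL1A and IL1B lie below 50K on every other array, and the probe sets of IL1RN and CXCL2 differ from each other.

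The 50K array stood apart in its controls, which bears on every gene that separates 50K from the rest. Of 24 probe sets for bacterial RNAs that are added before labelling, the median log2 ratio lay between −0.45 and −0.23 on the other 5 arrays, and that of 3 probe sets for 18S ribosomal RNA between −0.65 and −0.53. The hybridisation controls, which are added after labelling, had medians between −0.019 and 0.096, and the other probe sets had array medians of 0.018 to 0.051. The part of this shift in the results was not tested. Below, calls lost without the 50K array are named, or only the number of arrays whose removal lost the call is given.

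Both IL-1 agonists were lower on every array above 50K. IL1A had ratios of 0.606, 0.483, 0.587, 0.485 and 0.437 from 100K to 800K. Most of its fall was thus present at 100K and 200K, and at 800K it lay 2.29-fold under 50K. Its slope was −0.23 ± 0.061 (limma adjusted p = 0.0435). Without the 50K array the slope was −0.11 with an adjusted p of 0.30. The call was also lost without 100K, 400K, 600K or 800K (adjusted p = 0.0519 to 0.126).

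IL1B had ratios of 0.769, 0.558, 0.461, 0.591 and 0.554 at 100K, 200K, 400K, 600K and 800K. It was lowest at 400K, 2.17-fold below 50K, and 1.81-fold below it at 800K. The slope of −0.22 ± 0.059 passed narrowly (limma adjusted p = 0.0499), and it was −0.14 with an adjusted p of 0.354 without 50K. The call was lost without any other array except 200K as well (0.0547 to 0.126). The 2 probe sets of IL1B gave similar courses, at 0.442 and 0.479 at 400K. Those of IL1A differed at 100K, where 208200_at stood at 0.504 and 210118_s_at at 0.730, and only the second had a slope that passed when probe sets were tested alone (adjusted p = 0.0178 against 0.254). In all, IL1A, IL1B and IL7R were at least 0.3 log2 units below 50K on all 5 denser arrays, which held for 2.23% of all genes. The limit of 0.3 was set after the values were seen and each value rests on the 50K array, so this share is description and no test.

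The antagonist moved the other way. IL1RN had ratios of 1.33, 1.44, 1.53, 2.02 and 2.40 from 100K to 800K, so that every step of the series was upward. Its slope was 0.28 ± 0.037 (limma adjusted p = 0.00579), and it kept its call without each of the 6 arrays (adjusted p up to 0.0425). It was the only one of the 10 genes at least 0.3 log2 units above 50K on all 5 denser arrays, which held for 1.47% of all genes. This limit, too, was set after the values were seen.

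This mean hides a wide spread between the 5 probe sets of IL1RN. Probe set 212657_s_at reached 8.87 at 800K and 216243_s_at reached 3.69, with slopes of 0.73 and 0.41 (adjusted p = 0.00491 and 0.00981 over all probe sets). Probe set 212659_s_at reached 2.29, with a slope of 0.21 and an adjusted p of 0.0807. Probe sets 216244_at and 216245_at stayed between 1.00 and 1.09 on all arrays. Their standard deviations over arrays, 0.050 and 0.033 log2 units, lay below the median of 0.13 over all probe sets. The 3 probe sets that moved have identifiers marking them as shared between transcripts, and without such probe sets the slope of IL1RN was 0.012 (adjusted p = 0.687). The slope of 0.012 thus rests on 216244_at and 216245_at alone. The log2 ratio of 216244_at was the same, 0.0610, at 200K and 800K, and that of 216245_at was 0.0296 on both arrays. Whether such repeats mark a floor of the signal was not tested. The files hold no signal level, so a flat probe set with a dim signal and one with a steady signal cannot be told apart.

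The difference between IL1RN and each agonist, taken within an array, widened with density. The log2 ratio of IL1RN minus that of IL1A was 1.13, 1.58, 1.39, 2.06 and 2.46 from 100K to 800K. At 800K this is a 5.49-fold shift relative to 50K. The slope of the difference was 0.51 ± 0.099 (exact permutation test over all 720 orders of the densities, two-sided, p = 0.00833, adjusted p = 0.0278 over 10 pairs). For IL1RN minus IL1B the shift at 800K was 4.33-fold and the slope 0.49 ± 0.051 (exact permutation p = 0.00278, adjusted p = 0.0139). Between IL1A and IL1B the slope of the difference was −0.018 ± 0.087 (exact permutation p = 0.811), with a standard error that leaves unequal courses possible. The smallest p this test can give, the doubled share of 1 order in 720, is 0.00278. Without the shared probe sets the slopes were 0.19 and 0.23 and neither passed (exact permutation, adjusted p = 0.240 and 0.0625). There, IL1RN rests only on its flat probe sets 216244_at and 216245_at. With 1 array left out the slopes were 0.38 to 0.56 and 0.41 to 0.52. The smallest p is then 0.0167 before adjustment over 10 pairs, so a call lost there says little.

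IL18 had ratios of 0.95, 1.07, 1.44, 1.30 and 1.57 from 100K to 800K. It lay near its 50K value up to 200K and above it on the 3 densest arrays. The slope was 0.17 ± 0.035 (limma adjusted p = 0.0204), and the call was lost without 100K (0.0628) or 800K (0.0854). For these cytokines, which share a processing enzyme, IL18 minus IL1B rose with a slope of 0.39 ± 0.081 (exact permutation p = 0.0194, adjusted p = 0.0486). This call passed narrowly. It was lost with ranks of the density and without 5 of the 6 arrays (slopes 0.35 to 0.43). With 1 array left out the test can give no p below 0.0167, so those losses say little.

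**Figure D2:**
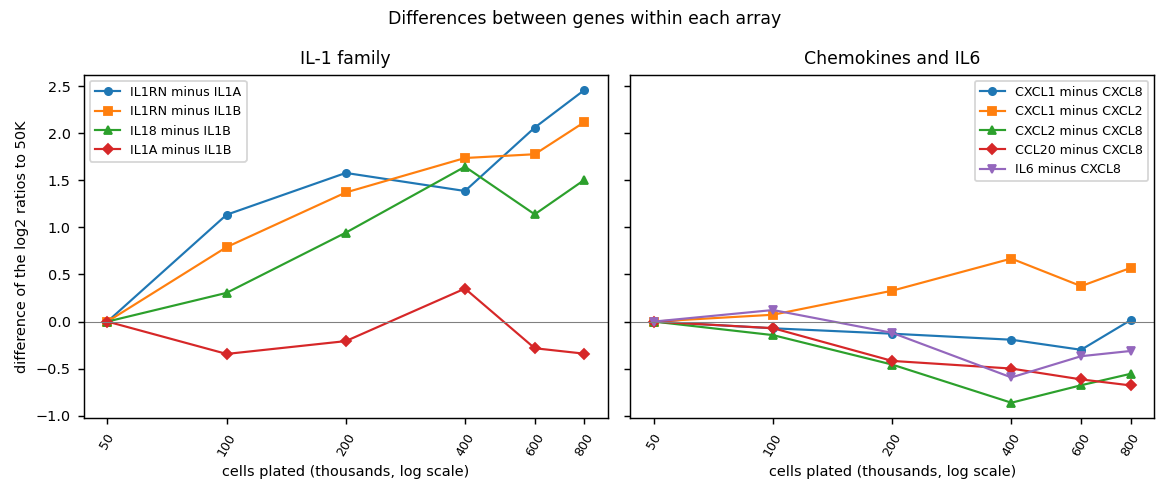
Difference between the log2 ratios of 2 genes on the same array (y, log2 units) against the cells plated (x, log scale, in K), with IL-1 family pairs on the left and chemokine and IL6 pairs on the right. IL1RN minus IL1A and IL1RN minus IL1B reach 2.46 and 2.12 at 800K, IL1A minus IL1B stays between −0.34 and 0.35, and the lines of CXCL2, CCL20 and IL6 minus CXCL8 lie below 0 from 200K on.

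Genes around the IL-1 and IL-18 pathway were taken from lists of textbook members. Over the 11 pathway lists used here and below, the share of genes called ran from 0% (chemokine receptors) to 42.9% (other cytokines and growth factors). Among all genes it was 21.3%, and no list was tested against that share. Of 10 inflammasome genes and processing proteases, 4 rose, none fell and 6 did not pass. PYCARD, the adaptor that joins sensor and caspase in the inflammasome, had a ratio of 3.36 at 800K (slope 0.39 ± 0.068). CASP1, the caspase that cleaves IL-1 beta and IL-18, reached 2.16 there (0.29 ± 0.025), and its 5 probe sets all passed with slopes between 0.21 and 0.47. CASP4, the caspase that senses bacterial lipopolysaccharide in the cell, reached 1.81 (0.23 ± 0.037), a mean of 1 probe set that rose (slope 0.40) and 1 that did not pass (0.054, adjusted p = 0.417). The protease gene CAPN1, whose product cleaves IL-1 alpha among other substrates, reached 1.36 (0.12 ± 0.021; call lost without 50K or 800K). The sensors NLRP1 and NLRP3 and the pore former GSDMD did not pass, with slopes of 0.037, −0.0077 and −0.0064. The median slope of the list was 0.057, against 0.0045 over all genes.

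Of 13 receptors and adaptors of IL-1 and IL-18, 2 fell, 2 rose and 9 did not pass. IL18R1, which encodes the chain that binds IL-18, stood at 0.298 at 400K and 0.381 at 800K (slope −0.38 ± 0.071, limma adjusted p = 0.0150, and 0.117 without 50K). Ligand and receptor of IL-18 thus moved in opposite directions. IRAK1, a kinase below the IL-1 receptor, was 0.596 of its 50K value at 800K (−0.23 ± 0.026, adjusted p = 0.00401). SIGIRR, a receptor that dampens IL-1 signalling, reached 1.35 (0.12 ± 0.020; call lost without 50K), and IL1RL1, the receptor of IL-33, reached 1.13 (0.056 ± 0.015, a call lost without any 1 of the 6 arrays). The signalling receptor IL1R1, its partner IL1RAP and the decoy IL1R2 had slopes of 0.019, 0.037 and −0.093 and did not pass. Among the 11 ligands and antagonists of the family, only the 4 genes already described passed; IL33, IL36A, IL36B, IL36G, IL36RN, IL37 and IL18BP did not.

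The signal of IL6, a cytokine of the acute response, hardly varied. Its single probe set gave ratios of 1.10, 1.05, 1.05, 1.13 and 1.15 from 100K to 800K, a range of 0.20 log2 units. The standard deviation over arrays was 0.075 log2 units, below the median of 0.13 over all probe sets. Without levels, a dim signal and a steady one cannot be told apart here. The slope was 0.035 ± 0.018 (limma adjusted p = 0.239), with a 95% interval from −0.0078 to 0.078. Of 15 genes of the IL-6 family and its signalling, 2 rose and 13 did not pass. They were the cytokine gene IL11 (slope 0.098 ± 0.025) and STAT3, the factor that IL-6 receptors activate (0.082 ± 0.020), and each lost its call without any array but 1. Neither of the 2 probe sets of IL11 passed alone. LIF, another ligand of the family, had ratios of 2.28 at 400K and 1.6 at 800K and did not pass (adjusted p = 0.0841).

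Of the 4 chemokines, CXCL8 and CXCL1 rose modestly and by a similar course. CXCL8 had ratios of 1.01, 1.14, 1.58, 1.46 and 1.42 from 100K to 800K, and CXCL1 had 0.965, 1.05, 1.38, 1.19 and 1.44. For both, the largest step of the series lay between 200K and 400K (0.46 and 0.40 log2 units), and the 3 densest arrays lay above the 3 sparsest. The slope of CXCL8 was 0.17 ± 0.034 (limma adjusted p = 0.0200) and that of CXCL1 0.13 ± 0.035 (0.0427). The call of CXCL8 was lost without 50K, 100K or 600K (0.0718, 0.0653 and 0.0650), and that of CXCL1 without any 1 of the 6 arrays (0.0522 to 0.160). CXCL1 minus CXCL8 had a slope of −0.032 ± 0.035 (exact permutation p = 0.408, adjusted p = 0.454).

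CXCL2 and CCL20 did not pass. CXCL2 had ratios of 0.918, 0.834, 0.869, 0.914 and 0.968, with a slope of −0.015 ± 0.027 (limma adjusted p = 0.812). Only 1 of its 3 probe sets varied: 209774_x_at stood at 0.737, 0.617, 0.700, 0.708 and 0.954 from 100K to 800K, a dip in the middle of the series with a return at 800K. Its identifier marks possible cross-hybridisation, and the other probe sets stayed between 0.927 and 1.05. CCL20 had ratios of 0.966, 0.857, 1.12, 0.954 and 0.889, with no order by density (slope −0.012 ± 0.037, adjusted p = 0.892).

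The courses were also compared within arrays against CXCL8. CCL20 minus CXCL8 fell at every step, reaching −0.68 log2 units at 800K (slope −0.18 ± 0.018, exact permutation p = 0.00278, adjusted p = 0.0139). CXCL2 minus CXCL8 had a slope of −0.18 ± 0.052 and CXCL1 minus CXCL2 one of 0.15 ± 0.041 and neither passed (exact permutation p = 0.0389 and 0.0333, adjusted p = 0.0556 for each). IL6 minus CXCL8 had a slope of −0.13 ± 0.053 and did not pass (exact permutation p = 0.0833, adjusted p = 0.104).

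CXCL8, CXCL1 and CXCL2 lie on chromosome 4. Their promoters are shown because those of CXCL1 and CXCL2 are nearly the same, and IL6 and IL1A are added for comparison. CXCL1 rose and CXCL2 did not pass, but the call of CXCL1 was lost without any 1 of the 6 arrays. The slope of CXCL1 minus CXCL2 did not pass (exact permutation, adjusted p = 0.0556), so unequal courses of these genes are not established. The sequences are the 140 bases before a transcription start in RefSeq (GRCh38.p14), 5′ to 3′ on the strand of the gene, and for IL1A, which has 2 listed starts, those of the more upstream start. Capitals mark matches on either strand to GGANTTTCC, letters found in NF-kB sites, or to TGANTCA, letters found in AP-1 sites, and no match of one overlaps a match of the other. The regions are CXCL1 at chr4:73869253-73869392, plus strand, CXCL2 at chr4:74099196-74099335, minus strand, CXCL8 at chr4:73740429-73740568, plus strand, IL6 at chr7:22727060-22727199, plus strand and IL1A at chr2:112784494-112784633, minus strand.
CXCL1: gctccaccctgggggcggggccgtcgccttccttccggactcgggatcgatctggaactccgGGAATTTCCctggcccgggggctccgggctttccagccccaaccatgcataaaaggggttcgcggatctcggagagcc
CXCL2: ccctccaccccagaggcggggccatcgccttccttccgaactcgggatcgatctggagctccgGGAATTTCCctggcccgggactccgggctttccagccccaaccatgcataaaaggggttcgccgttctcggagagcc
CXCL8: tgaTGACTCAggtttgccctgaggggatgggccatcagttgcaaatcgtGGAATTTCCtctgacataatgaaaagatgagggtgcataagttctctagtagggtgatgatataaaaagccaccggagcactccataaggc
IL6: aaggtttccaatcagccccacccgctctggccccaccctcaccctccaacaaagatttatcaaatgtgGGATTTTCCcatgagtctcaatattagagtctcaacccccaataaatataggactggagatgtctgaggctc
IL1A: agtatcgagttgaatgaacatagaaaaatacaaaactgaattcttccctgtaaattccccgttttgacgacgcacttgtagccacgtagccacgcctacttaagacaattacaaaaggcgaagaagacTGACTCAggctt

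Aligned over 139 bases, the CXCL1 and CXCL2 windows were identical at 129 (92.8%). Both hold GGAATTTCC, beginning 78 bases before the start in CXCL1 and 77 in CXCL2. CXCL8 holds the same letters beginning 91 bases before the start, and TGACTCA at 137. IL6 holds GGATTTTCC at 72, and IL1A holds TGACTCA at 12. Before its other listed start, not shown, IL1A holds TGACTCA at 105 and TGAGTCA at 55. Windows were found for 9 of the 10 genes, all but IL18. In the 250 bases before a start, GGANTTTCC was found in 4 of these 9 genes (CXCL1, CXCL2, CXCL8, IL6) and in 1.45% of all 35116 promoter windows. TGANTCA was found in 3 of the 9 (IL1A, IL1RN and CXCL8) and in 6.57% of all windows. A gene counted if any of its windows held a match (IL1A has 2 windows and IL1RN has 3), whereas the percentages count single windows. The 4 genes with GGANTTTCC include 2 that rose with density and 2 that did not pass, and those with TGANTCA include 2 that rose and 1 that fell.

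Of 17 chemokines outside the neutrophil-attracting group, 2 rose and 15 did not pass, CCL20 among them. CCL28, a chemokine of mucosal and mammary epithelium, was 1.02 at 100K and 3.61 at 800K (slope 0.51 ± 0.045, limma adjusted p = 0.0020). CXCL11, an interferon-induced ligand of CXCR3, reached 2.81 at 600K and 2.32 at 800K (0.34 ± 0.070, adjusted p = 0.0195), though 1 of its 2 probe sets did not pass alone (adjusted p = 0.288) and the call was lost without 50K, 100K or 800K. Of 7 neutrophil-attracting genes, CXCL8 and CXCL1 rose and CXCL2, CXCL3, CXCL5, CXCL6 and PPBP did not pass. CXCL3, a close relative of CXCL1 and CXCL2, had ratios of 0.765, 0.606, 0.569, 0.758 and 0.728. None of 11 chemokine receptors passed in either direction in limma, with slopes between −0.041 and 0.067.

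IL7R had the steepest slope of the 10 genes and the 8th steepest fall of all 19775. Its ratios were 0.507, 0.207, 0.096, 0.103 and 0.113 from 100K to 800K. The signal was thus about halved by the first doubling and 10.4-fold lower at 400K, and the mean over probe sets was no lower on the 2 denser arrays. The slope was −0.86 ± 0.10 (limma adjusted p = 0.00443), and the call held without each of the 6 arrays (slopes −0.99 to −0.76, adjusted p up to 0.0353). Its 2 probe sets both fell but differed in detail: 205798_at stood at 0.127, 0.0977 and 0.122 from 400K to 800K, and 226218_at at 0.0728, 0.109 and 0.105. Against the cell number without the logarithm, which weighs the flat dense end, the adjusted p was 0.0515, and with the 3 densest arrays set against the 3 sparsest it was 0.0556. IL7R minus IL1A had a slope of −0.63 ± 0.14 (exact permutation p = 0.0250) and did not pass after adjustment over the 10 pairs (adjusted p = 0.05).

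The rest of the IL-7 and TSLP axis gave no further call. Of 9 genes, IL7R fell and 8 did not pass. The ligands IL7 and TSLP had slopes of −0.067 and 0.075, and IL2RG, the chain that joins IL7R in the IL-7 receptor, had 0.050. CRLF2, which pairs with IL7R in the TSLP receptor, stood between 0.675 and 0.685 on all 5 denser arrays (adjusted p = 0.157). The cytokine gene IL24 likewise stood between 0.498 and 0.515 on those arrays (adjusted p = 0.129). In both genes only the 50K array differed, which stood apart in its controls. CRLF2 had the same log2 ratio, −0.566, at 400K and 800K. Whether these values mark a floor of the signal was not tested.

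**Figure D3:**
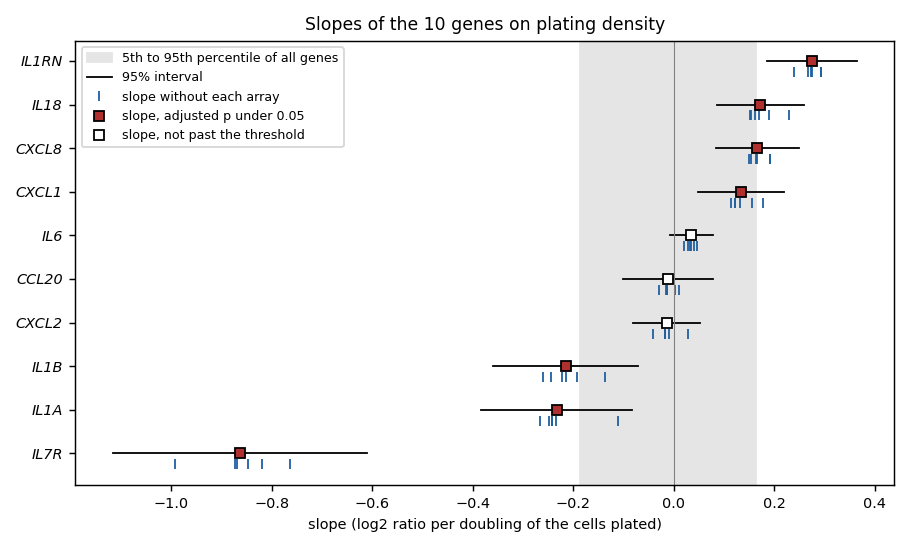
Slope of the log2 ratio per doubling of the cells plated (x) for each of the 10 genes. Squares are slopes (red, adjusted p under 0.05; white, not past the threshold), black lines 95% intervals, blue ticks the slopes without each array in turn, and the grey band the 5th to 95th percentile of all genes, −0.19 to 0.16. IL7R lies far outside the band at −0.86, while CXCL1 lies inside it at 0.13.

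Leukocyte markers were examined because IL7R is chiefly a lymphocyte gene. Of 11 measured markers, 2 rose, 1 fell and 8 did not pass. LAPTM5 and CD14 rose (slopes 0.89 ± 0.086 and 0.74 ± 0.081) and the integrin gene ITGB2 fell (−0.16 ± 0.031). PTPRC, the defining leukocyte gene CD45, had ratios between 0.996 and 1.07, and CD3E, a defining T cell gene, had a slope of 0.027 (adjusted p = 0.416). Of 10 fibroblast markers 1 rose and 1 fell, of 7 endothelial markers 2 rose, and of 11 mammary epithelial markers 3 rose and 2 fell. The shares called were 27.3% of leukocyte, 20% of fibroblast, 28.6% of endothelial and 45.5% of epithelial markers, against 21.3% of all genes. Among the epithelial ones the keratin genes KRT14 and KRT5 and the cadherin gene CDH1 rose (slopes 0.42, 0.12 and 0.21), and LAMB3 and ITGA6 fell. The part of these markers in the results was not tested, and without levels it is not known whether these genes are expressed in the cells.

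Genes of NF-kB signalling, on which IL-1 and many chemokine genes depend, were mixed. Of 19 measured, 5 rose, 2 fell and 12 did not pass, and their median slope was 0.0039. TNFAIP2, a target of NF-kB, reached 1.79 at 800K (0.22 ± 0.021), with 1 of its 2 probe sets rising (slope 0.44) and the other at 0.0031 (adjusted p = 0.923). The inhibitor gene NFKBIA reached 1.45 (0.12 ± 0.019; 0.0077 without the shared probe sets, adjusted p = 0.795). IKBKB, the kinase that marks the inhibitor for destruction, reached 1.64 (0.19 ± 0.038; call lost without 100K, 600K or 800K). CHUK, the partner kinase, stood at 0.641 (−0.15 ± 0.035; call lost without 4 of the 6 arrays), and ICAM1 and CYLD rose while IKBKG fell, each call lost without 5 of the 6 arrays.

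The courses of 3 genes of this list, and of CSF3 from the list of other cytokines, are given by array, as none of them passed. TNFAIP3, the feedback inhibitor A20, had ratios of 0.568, 0.357, 0.516, 0.661 and 1.03 from 100K to 800K, lowest at 200K and back at its 50K value at 800K. RELB, a subunit of NF-kB, had 0.585, 0.617, 0.620, 0.779 and 0.796, and CSF3, a growth factor of neutrophils, had 0.695, 0.644, 0.796, 1.08 and 1.15. NFKBIZ, a cofactor of NF-kB in epithelia, stood between 0.837 and 1.54 up to 600K and at 3.34 at 800K. These genes were picked out after their values were seen. The quadratic term did not pass in limma for any of them (adjusted p = 0.104 for TNFAIP3), nor for any of the 19775 genes, of which 12.6% had an unadjusted p under 0.05. Among the 10 cytokine genes the smallest p of the quadratic term were those of CXCL2 (0.00741, adjusted 0.211) and IL1B (0.0175, adjusted 0.281).

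**Figure D4:**
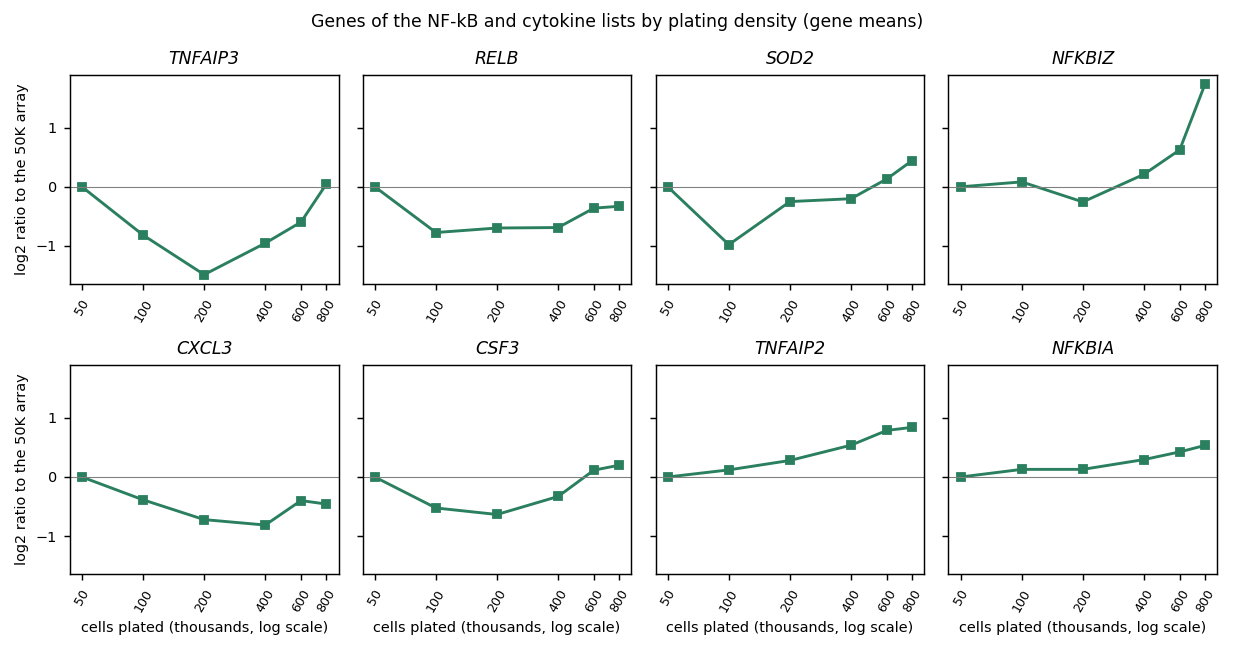
Log2 ratio to the 50K array (y) against the cells plated (x, log scale, in K) for 8 genes of the NF-kB and cytokine lists, chosen after their values were seen, as gene means with 1 array per density. TNFAIP3 is lowest at 200K (0.357 of 50K) and returns to 1.03 at 800K, NFKBIZ reaches 3.34 at 800K, and TNFAIP2 and NFKBIA climb along the series.

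Among other secreted cytokines and growth factors of epithelia, 4 of 14 measured genes rose, 2 fell and 8 did not pass. TGFB2, a growth factor that restrains epithelial growth, was 0.274 of its 50K value at 800K (slope −0.41 ± 0.067), and IL32, a cytokine gene, was 0.558 (−0.25 ± 0.039; call lost without 50K). TNFSF10, the death receptor ligand TRAIL, reached 2.49 (0.35 ± 0.057), TNFSF15 reached 1.70 (0.20 ± 0.020) and MIF reached 1.22 (0.066 ± 0.012; call lost without 50K or 800K). The rise of GDF15 rested on 1 of its 3 probe sets, and its call was lost without 50K, 100K or 600K. Of 7 genes that act on the decay of cytokine messenger RNA, ZFP36, which speeds the decay of such messages, rose (0.17 ± 0.039; call lost without 100K, 600K or 800K), and ELAVL1, which stabilises them, fell (−0.12 ± 0.025; call lost without 100K, 600K or 800K). The other 5 did not pass. Of the 27 genes called in these lists beyond the 10, the call of 10 held without each of the 6 arrays (IRAK1, CASP1, CASP4, PYCARD, CCL28, NFKBIA, TNFAIP2, TNFSF10, TNFSF15 and TGFB2). Tested alone, every probe set passed for IRAK1, CASP1, PYCARD, CCL28 and TNFSF10 among these, while 1 of 2 passed for CASP4, NFKBIA, TNFAIP2 and TNFSF15 and 3 of 5 for TGFB2.

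**Figure D5:**
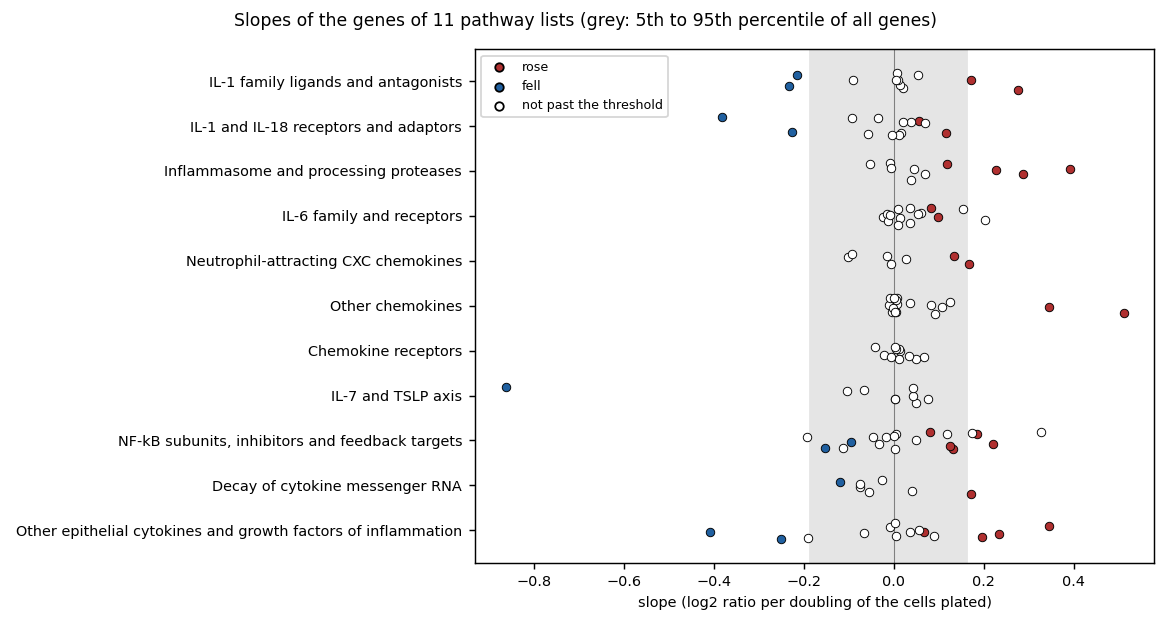
Slope of the log2 ratio per doubling of the cells plated (x) for every measured gene of 11 lists (rows); red rose, blue fell, white did not pass, and the grey band is the 5th to 95th percentile of all genes. IL7R stands alone at −0.86, the chemokine receptors lie between −0.041 and 0.067, and the rising inflammasome genes reach 0.39.

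The genes with the most similar courses were found by the root mean square difference of the log2 ratios over the 5 arrays above 50K, for the 4 genes that changed 2-fold or more on any array. Nearest to IL7R were PMEPA1, at 0.37 log2 units, and INSC, at 0.38. Nearest to IL1RN were LRP1 (0.071) and ENTPD2 (0.080). Those of IL1A were ARHGEF39 (0.14) and IFRD1 (0.14), and those of IL1B were SRGAP2 (0.11) and SNAI2 (0.13), neither of which had a slope that passed (adjusted p = 0.163 and 0.121).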

How the data were processed

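RNA from MCF10A dishes was measured on 6 Affymetrix HG-U133 Plus 2 arrays, 1 for each plating density in the labels. RMA is named in the submitters' processing notes, with no version. In the deposited table each value is a ratio to the 50K array: its 54675 entries for 50K are 1 to within 1e-06. How that ratio was taken is not stated in the labels, and signal over background is unknown. The log2 of the ratios was averaged over the probe sets with 1 symbol in the platform annotation (41091; 1801 had several symbols, 11721 were unnamed and 62 controls were left out), which gave 19775 genes. No filter on low values was applied. Slopes and quadratic terms came from limma 3.58.1, run under R 4.3.3 (eBayes after lmFit, no mean-variance trend, 4 and 3 residual degrees of freedom). Tests were two-sided, and p-values were adjusted by Benjamini-Hochberg over every gene. Differences within 10 pairs of genes were tested by exact permutation of the 6 densities, with the smaller tail doubled and p-values adjusted over the pairs. This form replaced a first one that counted absolute slopes, after the results of the first had been seen, because the written design gave 2 in 720 as the smallest p; of 7 pairs that passed in the first form, 4 pass in the form reported. The fit was tested on simulated data. Promoter windows came from RefSeq and were aligned with Biopython 1.88. The 10 genes, 11 pathway lists and 4 marker lists were chosen with earlier results of these data known. Genes named beyond the 10 were list members past the threshold, up to 4 with the largest slopes per list, and the 2 nearest in course to a gene that changed 2-fold; all others were named after their values were seen, as was the limit of 0.3 log2 units. The number of arrays limits the precision. Other alternatives left out shared probe sets or single arrays, centred the arrays, or changed the density scale, the variance model or the summary over probe sets.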

Additional observations from a re-analysis of the deposited data

How the results depend on the processing

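Slopes in this paragraph are per unit of a density scale with the same span of 4 units in every alternative. Slopes with single arrays left out, given further below, are per doubling of the cells plated. Without probe sets ending in _x_at or _s_at, IL1A (−0.17), IL1B (−0.22), IL1RN (0.012) and CXCL1 (0.13) lost their calls, and CXCL8 had no probe set left. Of the 9 genes still measured 1 rose (IL18) and 1 fell (IL7R), and 2664 of 17098 genes passed against 4220 of 19775. IL1RN minus IL1A (0.19), IL1RN minus IL1B (0.23) and IL18 minus IL1B (0.39) no longer passed. IL1A minus IL1B (0.042) and the quadratic term of IL1RN (−0.011) changed sign without a call. IL1B, CXCL1 and IL18 have no such probe set, so their slopes and that of IL18 minus IL1B were unchanged. For these, only the genes or pairs behind the fit and the adjustment differed. With arrays centred on their medians, IL1A (−0.24), IL1B (−0.22) and CXCL1 (0.13) lost their calls and 1 gene fell. On the linear scale of cells plated, IL1A (−0.19), IL1B (−0.16), CXCL8 (0.15) and IL7R (−0.73) lost theirs, 0 fell (limma; all 3 kept negative slopes) and CXCL2 (0.0055) changed sign. With ranks, IL1A (−0.24) and IL1B (−0.20) lost theirs, 1 gene fell, and IL18 minus IL1B (0.38) no longer passed. With the two-sided p taken from absolute slopes, the form run first and replaced after its results were seen, CXCL2 minus CXCL8 (−0.18), CXCL1 minus CXCL2 (0.15) and IL7R minus IL1A (−0.63) passed. With the 3 densest arrays against the 3 sparsest, IL1A (−0.10), IL1B (−0.13), IL1RN (0.16) and IL7R (−0.55) lost theirs, CXCL2 (0.00056) and CCL20 (0.016) changed sign, 0 fell and 2259 of all genes passed. IL1B lost its call with robust variances (−0.22) and with the median over probe sets (−0.22). For genes with several probe sets, those that did not pass where their gene did were 208200_at of IL1A (−0.17), 205067_at (−0.23) and 39402_at (−0.20) of IL1B, 212659_s_at (0.21), 216244_at (0.010) and 216245_at (0.015) of IL1RN and 211506_s_at of CXCL8 (0.14). Probe set 230101_at of CXCL2 (0.0022) changed sign. The only probe set of CXCL1, 204470_at (0.13), has the values of its gene. It did not pass in limma over all probe sets (adjusted p = 0.0586), where only the fit and the adjustment differed. Among the list genes, GDF15 changed sign without shared probe sets (−0.0055) and with the median over probe sets (−0.0027). The cause was not tested in any of these.

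Leaving out each array in turn gave slopes of −0.27 to −0.11 for IL1A, −0.26 to −0.14 for IL1B, 0.24 to 0.29 for IL1RN, 0.15 to 0.23 for IL18, 0.021 to 0.047 for IL6, 0.11 to 0.18 for CXCL1, −0.041 to 0.029 for CXCL2, 0.15 to 0.19 for CXCL8, −0.029 to 0.01 for CCL20, −0.99 to −0.76 for IL7R. For the differences the slopes were 0.38 to 0.56 for IL1RN minus IL1A, 0.41 to 0.52 for IL1RN minus IL1B, −0.057 to 0.026 for IL1A minus IL1B, 0.35 to 0.43 for IL18 minus IL1B, −0.077 to −0.0092 for CXCL1 minus CXCL8, −0.23 to −0.16 for CXCL2 minus CXCL8, 0.13 to 0.17 for CXCL1 minus CXCL2, −0.19 to −0.17 for CCL20 minus CXCL8, −0.17 to −0.11 for IL6 minus CXCL8, −0.76 to −0.57 for IL7R minus IL1A. The number of the 10 genes that rose lay between 1 and 3, that of falling ones between 1 and 3, and that of all genes past the threshold between 2388 (without 800K) and 3909. No paired analysis was possible because each density has 1 array. Limits: with 1 array per density the variation between dishes is unknown, a low signal and a steady one look alike in ratios, and with 5 arrays the exact test of a pair cannot give a p below 0.0167.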
